A study of Mus musculus with 11 samples.

Results

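The genes described here encode 4 families of pre-mRNA splicing factors, measured in mouse pancreas after caerulein-induced acute pancreatitis. Members were the genes whose symbol starts with Srsf, Hnrnp, Snrp, Sf3a or Sf3b, taken from probe sets that carry exactly 1 gene symbol in the platform annotation. This gave 46 of 19938 named genes, namely 10 SR protein genes, 17 hnRNP genes, 10 snRNP protein genes and 9 SF3a and SF3b genes. A gene with several probe sets, as 10 members had, was read from the one whose mean over the 11 arrays was highest. Positions of the probe sets were not given, so the chosen one may not lie at the parent gene. Several probe sets of a gene are not independent measurements. Family members whose probe sets carry several symbols were not analysed here.

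Introns are removed by the spliceosome, which is built on each transcript from small nuclear RNAs and their proteins (snRNPs). Sm proteins form a ring around most spliceosomal RNAs, and the SF3a and SF3b complexes belong to the U2 snRNP, which recognises the branch point of the intron. SR proteins carry an RNA-binding domain and an arginine- and serine-rich tail, bind mostly exons and usually favour their inclusion. The hnRNPs (heterogeneous nuclear ribonucleoproteins) coat nascent transcripts, often oppose SR proteins, and also act in mRNA export, stability and translation. The acinar cell, the main cell of the exocrine pancreas, devotes most of its mRNA to a few secreted enzymes.

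The caerulein group held 6 arrays from wild-type C57Bl6J mice given 9 intraperitoneal injections of caerulein, 1 per hour. Caerulein is a peptide analogue of cholecystokinin that overstimulates acinar cells. The dose is recorded as 50 mg/kg, without a check on the unit. The control group held 5 arrays from wild-type C57Bl6J mice given sodium chloride (NaCl), although the series text counts 4 control mice. Age, sex and the time from the last injection to tissue collection were not found among the labels used here. Each array measured total RNA of whole pancreas, so fewer cells of a type and less RNA per cell cannot be told apart. Values are deposited log2 expression, and their level is not comparable between genes.

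Arrays correlated at 0.981 to 0.991 within groups and at 0.938 to 0.955 between groups. Within the caerulein group, replicates 1 to 3 and replicates 4 to 6 lay on opposite sides of the second principal component, which held 6.56% of the variance. Of 12 acinar markers 10 were measured, and their mean log2 level was 12.27 to 12.40 on caerulein arrays and 12.76 to 12.90 on NaCl arrays. Their log2 differences ran from -2.00 to 0.03 with a median of -0.11, so that mean leans on the genes with the largest falls. As deposited 3 of the 10 were called lower. The median difference over all named genes was -0.13 on the log2 scale. Relative to the deposited values, shifting each array to an equal mean of 12 commonly used reference genes moved that median to -0.89. In that list 7 of 12 genes were themselves higher in caerulein, led by the cytoskeletal actin gene Actb, with a log2 difference of 2.93 (SE 0.09, limma adjusted p = 1.4e-10). Directions below are those of the deposited values, and that shift, called the reference-gene shift, is named beside the results it turns.

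Most splicing factor genes were higher in caerulein pancreas, although with the reference-gene shift most were lower. Of the 46 members, 32 were higher and 2 lower as deposited (limma, adjusted p under 0.05). Among all named genes 20.3% were higher and 34.3% lower by the same rule, and among all probe sets 16.4% and 27.8%. In the brighter 50 percent of the probe sets, which held 44 of the 46 members, 32.5% of the named genes were higher and 36.0% lower. The median log2 difference was 0.47 over the members and -0.13 over all named genes. In 28 members the lowest caerulein array exceeded the highest NaCl array, and in 1 the reverse held, against 16.7% and 20.6% of the named genes. A change of at least 2-fold was reached by 6 higher members and by 0 lower ones, against 6.14% and 1.44% of the named genes. The brighter 50 percent, where most members lie, held 11769 named genes. Of these, 3192 had every caerulein array above and 2904 every caerulein array below the NaCl arrays. In the same genes 1201 were at least 2-fold higher and 267 at least 2-fold lower.

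With the reference-gene shift 8 members were higher and 27 lower, against 5.96% and 86.5% of all named genes, and the members' median became -0.29. The gap between the members' median and that of all named genes stayed at 0.60, since a shift of whole arrays cannot change it. After a second quantile normalisation 22 members were higher and 4 lower, against 19.3% and 23.4% of all named genes, and the gap was 0.26. Under all 22 refits, 8 members were called higher each time: Srsf3, Hnrnpu, Hnrnpf, Hnrnpa0, Hnrnpab, Hnrnpm, Snrpa1 and Sf3b3. Srsf6 was called lower each time.

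**Figure D1:**
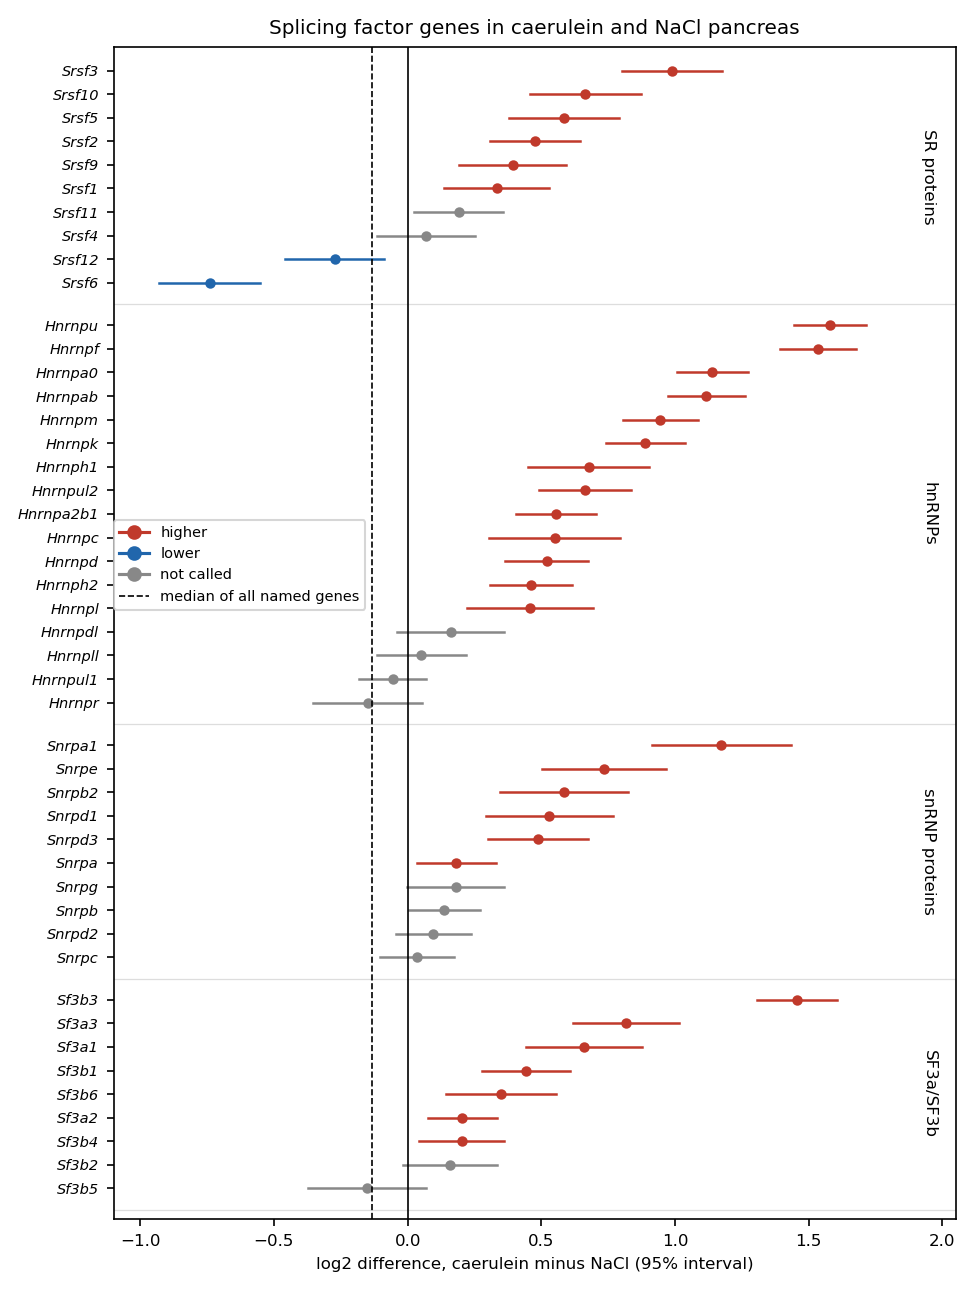
Log2 difference between 6 caerulein and 5 NaCl arrays for each of the 46 splicing factor genes, with the 95% interval of the limma fit; red, blue and grey mark genes called higher, lower or not called as deposited, and the dashed line is the median of all named genes. As deposited, 32 genes were higher and 2 (Srsf6 and Srsf12) lower, but with the reference-gene shift 8 were higher and 27 lower.

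Promoter sequences from RefSeq (build GRCm38.p6) were available for 40 of the 46 members, each with 250 bases before and 50 after the listed start. Those of the leading member of each family with a single listed start, and of Srsf6, the member with the largest fall, are shown 5′ to 3′ on the gene's own strand. Capitals mark matches on either strand to any of 4 motifs. These were the E-box CACGTG, the heat shock element core GAANNTTC, the cyclic AMP response element TGACGTCA and, matched likewise in both directions, the TATA box TATAAA.
Srsf3 promoter, chr17:29032410-29032709, plus strand: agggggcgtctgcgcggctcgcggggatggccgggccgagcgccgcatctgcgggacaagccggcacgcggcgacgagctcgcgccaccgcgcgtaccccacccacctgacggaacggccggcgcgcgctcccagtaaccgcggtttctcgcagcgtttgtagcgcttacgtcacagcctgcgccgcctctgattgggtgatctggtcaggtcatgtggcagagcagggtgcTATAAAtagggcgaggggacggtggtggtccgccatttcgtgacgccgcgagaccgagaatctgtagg
Srsf6 promoter, chr2:162931258-162931557, plus strand: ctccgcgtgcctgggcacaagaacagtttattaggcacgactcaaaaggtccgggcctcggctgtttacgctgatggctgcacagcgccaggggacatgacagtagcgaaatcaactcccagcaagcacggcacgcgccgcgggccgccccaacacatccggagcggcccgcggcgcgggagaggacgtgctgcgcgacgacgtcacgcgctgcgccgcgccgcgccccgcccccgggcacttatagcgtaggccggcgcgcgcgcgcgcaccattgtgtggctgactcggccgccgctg
Hnrnpu promoter, chr1:178337766-178338065, minus strand: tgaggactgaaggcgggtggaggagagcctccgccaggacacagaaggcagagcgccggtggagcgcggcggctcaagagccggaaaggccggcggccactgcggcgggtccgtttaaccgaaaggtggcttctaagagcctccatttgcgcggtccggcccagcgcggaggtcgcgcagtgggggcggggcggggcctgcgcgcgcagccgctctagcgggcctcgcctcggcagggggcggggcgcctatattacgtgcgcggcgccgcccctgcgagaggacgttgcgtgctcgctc
Snrpa1 promoter, chr7:66060086-66060385, plus strand: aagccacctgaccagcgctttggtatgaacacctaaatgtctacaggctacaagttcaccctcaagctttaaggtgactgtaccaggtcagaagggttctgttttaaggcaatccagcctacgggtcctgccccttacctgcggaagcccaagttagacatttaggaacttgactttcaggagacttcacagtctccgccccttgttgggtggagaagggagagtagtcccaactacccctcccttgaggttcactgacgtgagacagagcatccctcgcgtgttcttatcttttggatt
Sf3b3 promoter, chr8:110846754-110847053, minus strand: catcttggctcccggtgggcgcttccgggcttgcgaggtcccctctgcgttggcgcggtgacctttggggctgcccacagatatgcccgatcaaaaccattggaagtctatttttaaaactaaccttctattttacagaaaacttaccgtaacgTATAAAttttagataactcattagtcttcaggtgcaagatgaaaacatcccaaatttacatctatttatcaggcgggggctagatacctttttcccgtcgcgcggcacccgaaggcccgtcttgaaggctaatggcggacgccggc

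Among these 5 windows, TATAAA was found in those of Srsf3 and Sf3b3, and the other motifs had no match. Over the 40 members, CACGTG was present for 5 (12.5%), among them Hnrnpf and Hnrnpm, against 8.09% of 27025 genes. GAANNTTC was present for 6 members (15%), against 9.04% of genes, and TGACGTCA for 2 (5.0%), against 2.03%. TATAAA was present for 6 members (15%), against 15.7% of genes. Where a gene has several listed starts, a match at any of them was counted. The median GC content was 60.4% for the members and 52.8% for all genes. A match describes the letters only.

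Of the 10 SR protein genes, 6 were higher and 2 lower; their median log2 difference was 0.36 as deposited and -0.39 with the reference-gene shift, where 1 was higher and 7 lower. The rise of Srsf3 and the fall of Srsf6 were the largest in the family. Srsf3, the smallest SR protein and an adaptor for mRNA export, ranged from 8.95 to 9.28 with a median of 9.12 on the 6 caerulein arrays, and was 8.34, 8.25, 7.93, 8.08 and 8.02 on NaCl arrays 1 to 5. The lowest caerulein array lay above the highest NaCl array. The difference was 0.99 (SE 0.09), or 1.99-fold (limma adjusted p = 1.2e-06). Its 2 further probe sets were both higher, by 0.79 each, but 1 of them was dim, at 4.03 to 5.39 over both groups.

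Srsf10, which turns into a splicing repressor when dephosphorylated under heat shock, ranged from 8.39 to 8.64 with a median of 8.57 in caerulein, against 8.18, 7.76, 7.75, 7.66 and 8.06 in NaCl. The groups did not overlap, and the difference was 0.67 (SE 0.10, limma adjusted p = 1.2e-04). A dimmer probe set of the gene gave 0.11 (limma adjusted p = 0.525), so its probe sets disagree. Srsf5, a regulator of alternative splicing that is also known as an early response gene in regenerating rat liver, ranged from 9.14 to 9.43 with a median of 9.32 in caerulein, against 8.74, 8.55, 8.50, 8.89 and 8.96 in NaCl. It was higher on every caerulein array, by 0.58 (SE 0.09, limma adjusted p = 3.0e-04), and by 0.64 at its other probe set. Srsf2, a core component of nuclear speckles, ranged from 8.62 to 8.94 with a median of 8.80 in caerulein, against 8.42, 8.39, 8.20, 8.39 and 8.21 in NaCl. It too showed no overlap, with a difference of 0.48 (SE 0.08, limma adjusted p = 3.0e-04), which fell to 0.16 after a second quantile normalisation (limma adjusted p = 0.114). With the reference-gene shift Srsf10, Srsf5 and Srsf2 turned to -0.09, -0.17 and -0.28.

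The lower values in the family were those of Srsf6 and Srsf12. Srsf6, an SR protein that binds exonic enhancers, ranged from 8.52 to 8.74 with a median of 8.55 in caerulein, against 9.48, 9.51, 9.04, 9.36 and 9.25 in NaCl. All caerulein arrays lay below all NaCl arrays. The difference was -0.74 (SE 0.09), a level 1.67-fold lower (limma adjusted p = 2.1e-05), and it lay between -1.498 and -0.69 under the 22 refits. Srsf12, a less common member that antagonises other SR proteins, ranged from 5.29 to 5.60 with a median of 5.40 in caerulein, against 5.81, 5.68, 5.90, 5.56 and 5.56 in NaCl. These ranges overlapped, and the difference of -0.27 (SE 0.09, limma adjusted p = 0.0211) kept its call under 18 of the 22 refits. It was not called without NaCl replicate 3 (-0.22, limma adjusted p = 0.056), after a second quantile normalisation (-0.14, limma adjusted p = 0.226) or with cyclic loess (-0.09, limma adjusted p = 0.449). Nor was it called with caerulein replicates 1 to 3 only.

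Smaller rises were those of Srsf9, by 0.39 (limma adjusted p = 0.00420), and of Srsf1, the founding member of the family, by 0.33 (limma adjusted p = 0.0105). In both the groups overlapped, and after a second quantile normalisation neither was called. With the reference-gene shift Srsf9 and Srsf1 were called lower, at -0.36 and -0.42. Srsf11 gave 0.19 (limma adjusted p = 0.0599). Srsf4, a long SR protein, ranged from 7.50 to 7.75 with a median of 7.67 in caerulein, against 7.76, 7.43, 7.37, 7.71 and 7.65 in NaCl. Its groups overlapped widely, and the 95% interval of its difference of 0.07 ran from -0.11 to 0.25.

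**Figure D2:**
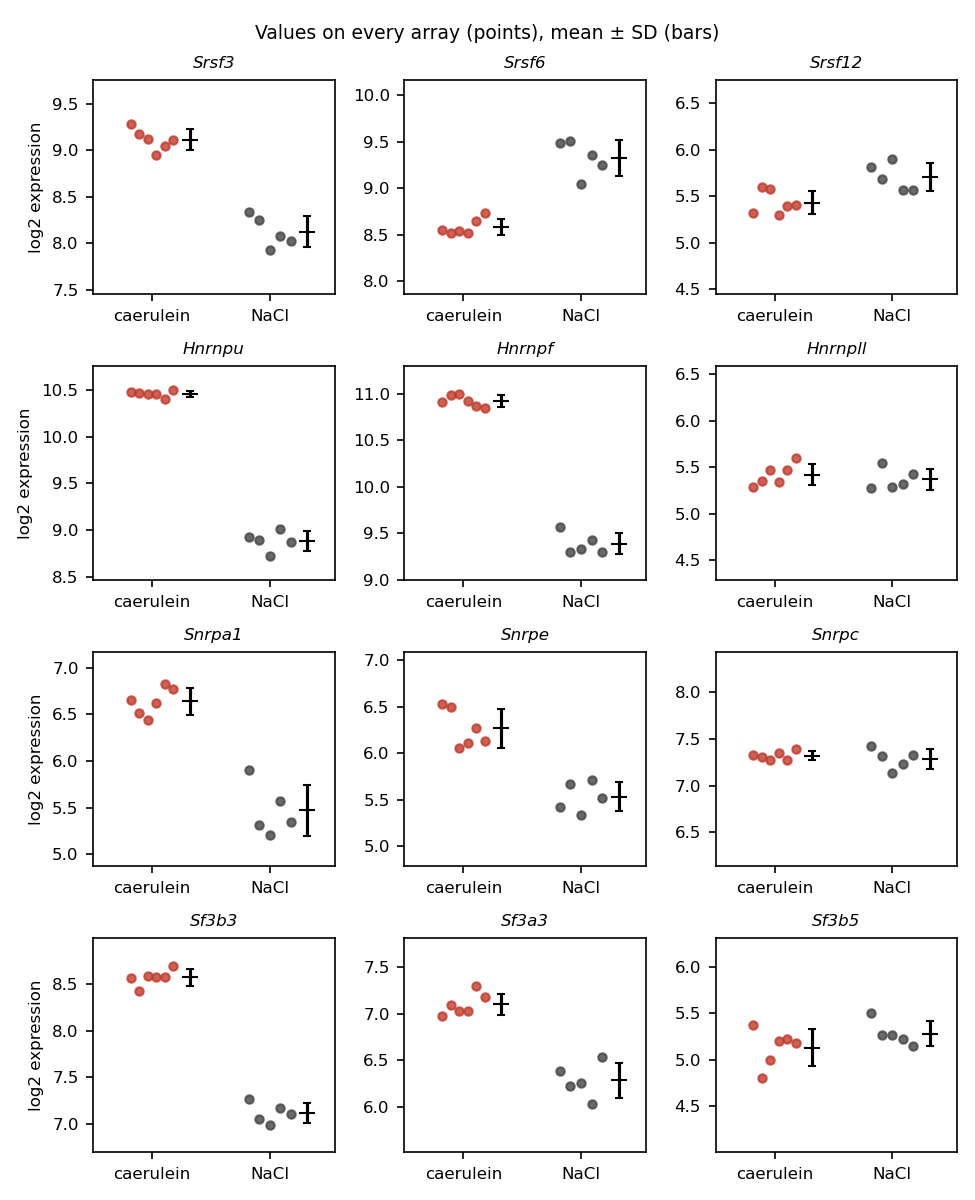
Log2 expression on each of the 6 caerulein and 5 NaCl arrays for 3 members of each family, with the mean and SD beside the points; every panel spans the same height on its own level. Srsf3, Hnrnpu, Hnrnpf, Snrpa1, Snrpe, Sf3b3 and Sf3a3 were higher on every caerulein array as deposited (Snrpe turned to -0.02 with the reference-gene shift), Srsf6 was lower on every one, and Srsf12, Hnrnpll, Snrpc and Sf3b5 overlapped.

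The median of the hnRNP genes was the highest of the 4 families, 0.55 as deposited and -0.20 with the reference-gene shift. Of 17 genes, 13 were higher and 0 lower as deposited, against 5 higher and 8 lower with the shift. In each of the 13 called as deposited the groups did not overlap. Hnrnpu, which binds RNA and nuclear scaffold DNA, ranged from 10.40 to 10.50 with a median of 10.47 in caerulein, against 8.92, 8.89, 8.72, 9.01 and 8.87 in NaCl. Its SD in caerulein was 0.03, and the difference was 1.58 (SE 0.06), or 2.99-fold (limma adjusted p = 9.8e-10), the largest of the 46 members. Hnrnpf, which binds runs of guanine, ranged from 10.85 to 10.99 with a median of 10.92 in caerulein, against 9.56, 9.30, 9.34, 9.43 and 9.30 in NaCl. The difference was 1.53 (SE 0.07), or 2.90-fold (limma adjusted p = 2.1e-09), and its 4 probe sets gave 1.42 to 1.53.

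Hnrnpa0, a binder of AU-rich elements in inflammatory mRNAs, ranged from 8.19 to 8.32 with a median of 8.25 in caerulein, against 7.13, 7.10, 7.07, 7.26 and 6.996 in NaCl. The rise was 1.14 (SE 0.06), or 2.20-fold (limma adjusted p = 1.3e-08). Hnrnpab, an RNA- and DNA-binding relative of Hnrnpd, ranged from 9.84 to 10.10 with a median of 10.06 in caerulein, against 8.97, 8.80, 8.94, 8.96 and 8.82 in NaCl. It was 2.17-fold higher (difference 1.12, SE 0.07, limma adjusted p = 3.7e-08). These 4 genes and Hnrnpm were also called higher with the reference-gene shift, Hnrnpu by 0.82, Hnrnpf by 0.78, Hnrnpa0 by 0.38, Hnrnpab by 0.36 and Hnrnpm by 0.19.

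As deposited, the next rises were those of Hnrnpm, by 0.95, and of Hnrnpk, a protein with KH domains that binds runs of cytosine, by 0.89. The 3 probe sets of Hnrnpk gave 0.83 to 0.89. Hnrnph1 rose by 0.68 and its near relative Hnrnph2 by 0.46, both known, like Hnrnpf, for binding guanine runs. Hnrnpul2 rose by 0.66, Hnrnpa2b1 by 0.55, the uridine-tract binder Hnrnpc by 0.55 and Hnrnpd, a factor of AU-rich mRNA decay, by 0.52. Hnrnpl, which binds CA repeats, rose by 0.46 (SE 0.11, limma adjusted p = 0.00441), but was not called after a second quantile normalisation (0.15, limma adjusted p = 0.293) or cyclic loess (0.28, limma adjusted p = 0.0601). Hnrnph2 also lost its call after a second quantile normalisation (0.18, limma adjusted p = 0.0831). Of the 9 genes from Hnrnpm to Hnrnpl, all except Hnrnpm and Hnrnpk turned negative with the reference-gene shift, from -0.08 for Hnrnph1 to -0.30 for Hnrnpl.

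Within pairs of related hnRNP genes the values differed in size. Hnrnpul2 rose, whereas Hnrnpul1 gave -0.06 (95% interval -0.18 to 0.07). However, Hnrnpul1 stayed uncalled under only 1 of the 4 rescalings. It was called lower after a second quantile normalisation (-0.34, limma adjusted p = 1.7e-04) and with the reference-gene shift (-0.81). Hnrnpd rose, whereas Hnrnpdl gave 0.16 (95% interval -0.04 to 0.36). Hnrnpl rose, whereas Hnrnpll, a regulator of splicing in lymphocytes, ranged from 5.28 to 5.60 with a median of 5.41 in caerulein, against 5.27, 5.55, 5.28, 5.32 and 5.43 in NaCl. The groups of Hnrnpll overlapped, with a difference of 0.05 (95% interval -0.11 to 0.22). Hnrnpr gave -0.15 (limma adjusted p = 0.214). The differences within these pairs were picked after their values were seen and were not tested.

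Of the 10 snRNP protein genes, 6 were higher and 0 lower; their median was 0.33 as deposited and -0.42 with the reference-gene shift, where 1 was higher and 6 lower. The U2-specific pair led together with the Sm protein gene Snrpe. Snrpa1, which encodes the A′ protein of U2, ranged from 6.44 to 6.83 with a median of 6.64 in caerulein, against 5.90, 5.31, 5.21, 5.57 and 5.35 in NaCl. All caerulein arrays were above all NaCl arrays, and the difference was 1.17 (SE 0.12), or 2.25-fold (limma adjusted p = 5.5e-06). Snrpb2, which encodes its partner B″, ranged from 7.16 to 7.63 with a median of 7.26 in caerulein, against 6.80, 6.94, 6.85, 6.40 and 6.61 in NaCl. It was higher by 0.58 (SE 0.11, limma adjusted p = 9.5e-04), also without overlap.

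Of the Sm ring genes, Snrpe ranged from 6.05 to 6.53 with a median of 6.20 in caerulein, against 5.42, 5.67, 5.34, 5.71 and 5.52 in NaCl. It did not overlap and rose by 0.73 (SE 0.11, limma adjusted p = 1.2e-04). Snrpd1 ranged from 6.78 to 7.35 with a median of 7.12 in caerulein, against 6.59, 6.83, 6.54, 6.36 and 6.66 in NaCl. One caerulein array fell below the highest NaCl array, and the difference was 0.53 (SE 0.11, limma adjusted p = 0.00188). Snrpd3 rose by 0.49 (limma adjusted p = 5.7e-04), but was not called after a second quantile normalisation (0.19, limma adjusted p = 0.128). Snrpg gave 0.18, Snrpb 0.14 and Snrpd2 0.10, with limma adjusted p-values of 0.0971, 0.0869 and 0.245. The 5 probe sets of Snrpd2 spread from -0.26 to 0.22, with 1 called higher and 1 lower, so a direction for this gene depends on the probe set. With the reference-gene shift Snrpe turned to -0.02, Snrpb2 to -0.17, Snrpd1 to -0.23 and Snrpd3 to -0.27.

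The 2 members that encode U1-specific proteins differed little. Snrnp70, a U1 protein gene outside the members that was named after its value was seen, rose by 0.54 (limma adjusted p = 9.6e-05). With the reference-gene shift Snrnp70 gave -0.22. Snrpa, which encodes the A protein of U1, gave 0.18 (SE 0.07, limma adjusted p = 0.0455), a call kept under 6 of the 22 refits. With the reference-gene shift it turned to -0.58. Snrpc, which encodes the C protein of U1, ranged from 7.27 to 7.39 with a median of 7.32 in caerulein, against 7.43, 7.32, 7.14, 7.23 and 7.32 in NaCl. The groups overlapped and the difference was 0.04 (95% interval -0.10 to 0.17). Its 3 probe sets gave -0.05 to 0.04.

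Of the 9 genes of SF3a and SF3b, 7 were higher and 0 lower; their median was 0.35 as deposited and -0.41 with the reference-gene shift, where 1 was higher and 6 lower. Sf3b3, a scaffold subunit of SF3b, had the largest difference of the complex. It ranged from 8.43 to 8.70 with a median of 8.58 in caerulein, against 7.27, 7.06, 6.99, 7.17 and 7.10 in NaCl. The difference was 1.46 (SE 0.07), or 2.75-fold (limma adjusted p = 4.6e-09), and it was 0.70 with the reference-gene shift. Sf3b1, the largest SF3b subunit, which clamps the branch point and is mutated in some leukaemias, ranged from 8.57 to 8.84 with a median of 8.74 in caerulein, against 8.19, 8.34, 8.18, 8.22 and 8.46 in NaCl. It rose by 0.44 (SE 0.08, limma adjusted p = 4.6e-04) with no overlap, but by 0.12 after a second quantile normalisation (limma adjusted p = 0.279) and -0.31 with the reference-gene shift.

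Among the SF3a subunits, Sf3a3 ranged from 6.98 to 7.29 with a median of 7.06 in caerulein, against 6.39, 6.22, 6.25, 6.03 and 6.53 in NaCl. The groups did not overlap, with a difference of 0.82 (SE 0.09, limma adjusted p = 1.3e-05). Sf3a1 ranged from 6.72 to 6.90 with a median of 6.77 in caerulein, against 6.42, 6.11, 5.86, 6.30 and 5.92 in NaCl. It was higher by 0.66 (SE 0.10, limma adjusted p = 1.7e-04), again on every array. Sf3a2, the third subunit, gave 0.20 (limma adjusted p = 0.0142), not called after a second quantile normalisation (limma adjusted p = 0.0752). With the reference-gene shift Sf3a3 was 0.06, Sf3a1 -0.10 and Sf3a2 -0.55.

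The small and remaining SF3b subunits differed less. Sf3b6, which lies next to the branch point adenosine, rose by 0.35 (SE 0.10, limma adjusted p = 0.0100; -0.41 with the reference-gene shift), and Sf3b2 gave 0.16 (limma adjusted p = 0.127). Sf3b4 was called higher by 0.20 (limma adjusted p = 0.0407) at its brighter probe set, while its other probe set gave -0.32 (limma adjusted p = 0.0527), and their mean was -0.06. Its call was kept under 6 of the 22 refits and under 0 of the 4 rescalings, with -0.55 under the reference-gene shift. Sf3b5 ranged from 4.80 to 5.38 with a median of 5.19 in caerulein, against 5.50, 5.26, 5.26, 5.23 and 5.15 in NaCl. The groups overlapped, with a difference of -0.15 (95% interval -0.37 to 0.07). The log2 differences of the subunits ran from -0.15 to 1.46. The lower end is that of Sf3b5, a dim probe set whose interval spans 0 and which gave 0.05 with cyclic loess.

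The medians of the families were also compared with the median of all named genes on the same array, a measure that a shift of whole arrays cannot change. For the hnRNP genes this gap was 2.71 to 3.09 on caerulein arrays and 2.07 to 2.28 on NaCl arrays. The SR protein genes gave 2.43 to 2.81 in caerulein and 1.83 to 2.26 in NaCl. The snRNP protein genes gave 1.45 to 1.71 in caerulein and 0.93 to 1.16 in NaCl, and the SF3a and SF3b genes 1.12 to 1.41 in caerulein and 0.62 to 0.82 in NaCl. In all 4 families the groups did not overlap. The gap of Srsf6 to the median of the other 9 SR protein genes went the other way, with 0.40 to 0.83 in caerulein and 1.60 to 1.76 in NaCl. Srsf6 was picked for its fall on these same arrays, so its gap is a description and no separate support. Only the change between groups is read here, since levels of different probe sets are not comparable, and no test was made on these medians.

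**Figure D3:**
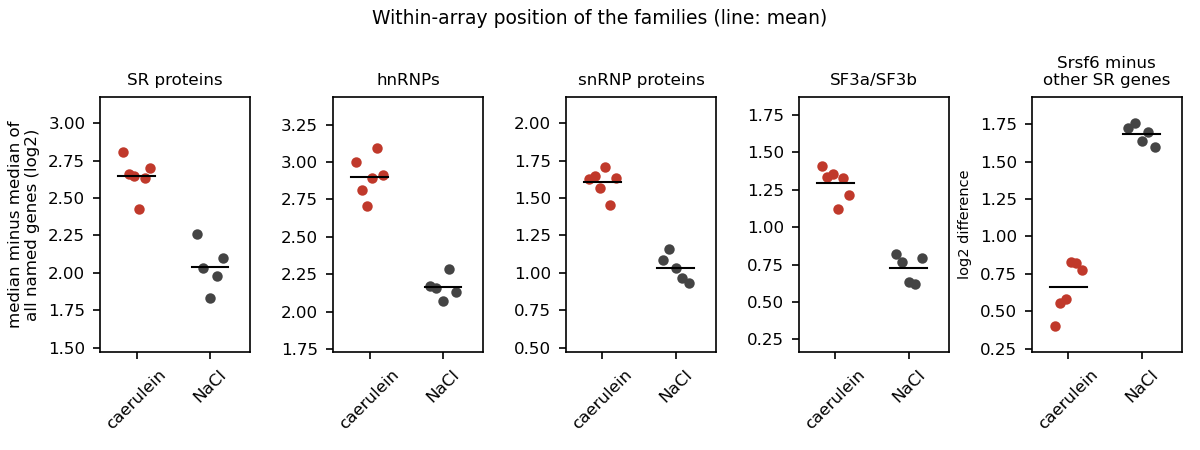
For each array, the median of a family minus the median of all named genes (first 4 panels) and Srsf6 minus the median of the other 9 SR protein genes (last panel), on the log2 scale, with the group mean as a line. The 6 caerulein arrays lie above the 5 NaCl arrays in the first 4 panels and below them in the last. Srsf6 was picked for its fall on these same arrays.

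Other genes of the splicing pathway were counted by lists, beside 20.3% higher and 34.3% lower among all named genes as deposited and 5.96% and 86.5% with the reference-gene shift. Of 10 kinases and phosphatases that act on SR proteins, 2 were higher and 4 lower (median -0.03), against 2 higher and 8 lower with the reference-gene shift, shares near those of all named genes as deposited. With the mean of all probe sets of a gene, 3 were higher and 3 lower, and Dyrk1a, called lower as deposited, gave 0.30. Tra2a and Qk, counted lower in the SR-related and hnRNP-like lists below, likewise gave 0.07 and 0.04. Clk3, a nuclear kinase of SR proteins, ranged from 7.91 to 8.13 with a median of 8.06 in caerulein, against 6.85, 6.56, 6.41, 6.89 and 6.56 in NaCl. Its relative Clk4 ranged from 6.00 to 6.52 with a median of 6.37 in caerulein, against 7.59, 7.72, 7.27, 7.69 and 7.77 in NaCl. Clk3 was 2.64-fold higher (difference 1.40, SE 0.09, limma adjusted p = 8.6e-08) and Clk4 2.41-fold lower (difference -1.27, SE 0.11, limma adjusted p = 1.1e-06), and each kept its call under all 22 refits. The groups overlapped in neither. Among the cytoplasmic kinases, chosen after their values were seen, Srpk1 rose by 1.17 and kept its call under all 22 refits. Srpk2 gave -0.27, but was not called after a second quantile normalisation (-0.15, limma adjusted p = 0.113) and gave -0.10 with cyclic loess.

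Of 23 SR-related proteins 14 were higher and 2 lower (median 0.48) as deposited, against 2 higher and 13 lower with the reference-gene shift. Rnps1, a protein of the exon junction complex, was 3.06-fold higher (limma adjusted p = 5.2e-08), and Scaf8, which binds the tail of RNA polymerase II, 2.14-fold higher (limma adjusted p = 1.6e-04, and 0.0656 with the reference-gene shift). Luc7l2, a U1-associated factor, was 1.43-fold lower (limma adjusted p = 5.0e-04). Of 32 further snRNP and LSm protein genes 22 were higher and 3 lower (median 0.35), against 2 higher and 20 lower with the reference-gene shift. The helicase gene Dhx15, which takes apart used spliceosomes, and Plrg1, a core subunit of the active spliceosome, were 2.14-fold and 2.08-fold higher (limma adjusted p = 2.5e-07 and 5.2e-06). Lsm4, part of the ring on U6 RNA and of the mRNA decay ring, was 1.35-fold lower (limma adjusted p = 6.7e-04).

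Of 21 snRNP assembly factors 11 were higher and 0 lower (median 0.42), against 1 higher and 13 lower with the reference-gene shift. Wdr77, the partner of the methyltransferase that modifies Sm proteins, was 3.01-fold higher (limma adjusted p = 5.4e-07). Strap, a protein of the SMN complex, was 1.78-fold higher (limma adjusted p = 8.2e-06), but gave 0.07 with the reference-gene shift. Of 28 other hnRNP-like regulators 18 were higher and 4 lower (median 0.56), against 6 higher and 14 lower with the shift. Ptbp3, a pyrimidine-tract binder, was 3.31-fold higher (limma adjusted p = 1.7e-09) and Taf15, an RNA-binding protein found with the transcription factor TFIID, 3.22-fold higher (limma adjusted p = 3.9e-08). Cirbp, an RNA-binding protein induced by cold, was 1.70-fold lower (limma adjusted p = 6.1e-07).

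All 13 factors for nuclear import and mRNA export were higher as deposited (median 0.90), whereas 4 were higher and 1 lower with the reference-gene shift. The import receptor gene Kpnb1 ranged from 9.17 to 9.52 with a median of 9.42 in caerulein, against 7.76, 7.76, 7.44, 7.79 and 7.88 in NaCl, a 3.12-fold difference (limma adjusted p = 1.8e-08). The export helicase gene Ddx39a was 2.73-fold higher (limma adjusted p = 8.0e-09). Both were also called with the reference-gene shift. Tnpo3, the import receptor of SR proteins, rose by 1.17, and Tnpo1, which imports several hnRNPs, by 0.83. With the reference-gene shift Tnpo3 was still called higher, at 0.41, whereas Tnpo1 gave 0.07 (limma adjusted p = 0.617). These last 2 were chosen after their values were seen.

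**Figure D4:**
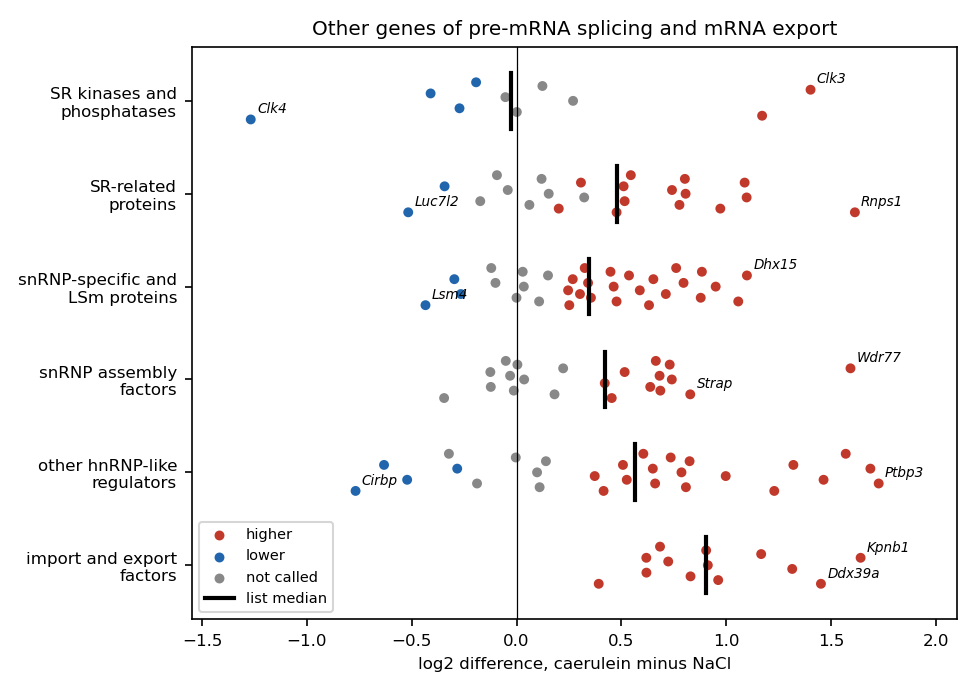
Log2 difference between caerulein and NaCl as deposited for each measured gene of 6 lists of splicing and export factors; red, blue and grey mark higher, lower and not called, and the bar is the list median. Medians lie between -0.03 for SR kinases and phosphatases and 0.90 for import and export factors; with the reference-gene shift the medians of the first 5 lists were -0.19 or below and that of the last 0.15.

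Markers of other cells were read on the same arrays, where 20.3% of all named genes were higher and 34.3% lower. Of 12 macrophage markers 7 were higher and 1 lower, and their mean log2 level was 6.26 to 7.11 on caerulein arrays and 5.68 to 5.83 on NaCl arrays. Of 10 lymphocyte markers 1 was higher and 5 lower, and their mean level was 4.91 to 5.15 in caerulein and 5.07 to 5.22 in NaCl. Of 10 neutrophil markers 0 were higher and 2 lower, with 4.54 to 5.08 in caerulein and 4.72 to 4.80 in NaCl. Of 9 proliferation markers 1, the replication clamp gene Pcna, was higher and 4 were lower, with 5.44 to 5.53 in caerulein and 5.54 to 5.68 in NaCl. Of the 10 acinar markers 0 were higher and 3 lower, namely the transcription factor genes Nr5a2, Rbpjl and Bhlha15, with differences of -0.83, -1.43 and -2.00, while the 7 digestive enzyme genes were not called. With a trended robust variance prior or an equal 75th percentile 8 of the 10 were lower, and with the reference-gene shift all 10 were. In the deposited values every caerulein array lay below every NaCl array for 7 of the 10, against 20.6% of all named genes. RMA values give no 0, so absence of a marker cannot be read. The part of the macrophage markers in the splicing factor differences was not tested.

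The 2 sets of caerulein replicates gave similar numbers of called members, although some values differed between them. Against all NaCl arrays, 31 members were higher and 1 lower with caerulein replicates 1 to 3 only, and 28 higher and 2 lower with replicates 4 to 6 only. The difference between the means of replicates 4 to 6 and of replicates 1 to 3 ranged from -0.21 for Srsf1 to 0.27 for Hnrnpl. It was above 0 for 20 members and below 0 for 26. The gap of Srsf6 to the median of the other SR protein genes was 0.40 to 0.58 on caerulein replicates 1 to 3. On caerulein replicates 4 to 6 it was 0.78 to 0.83, without overlap. That gap was picked after its values were seen and was not tested.

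**Figure D5:**
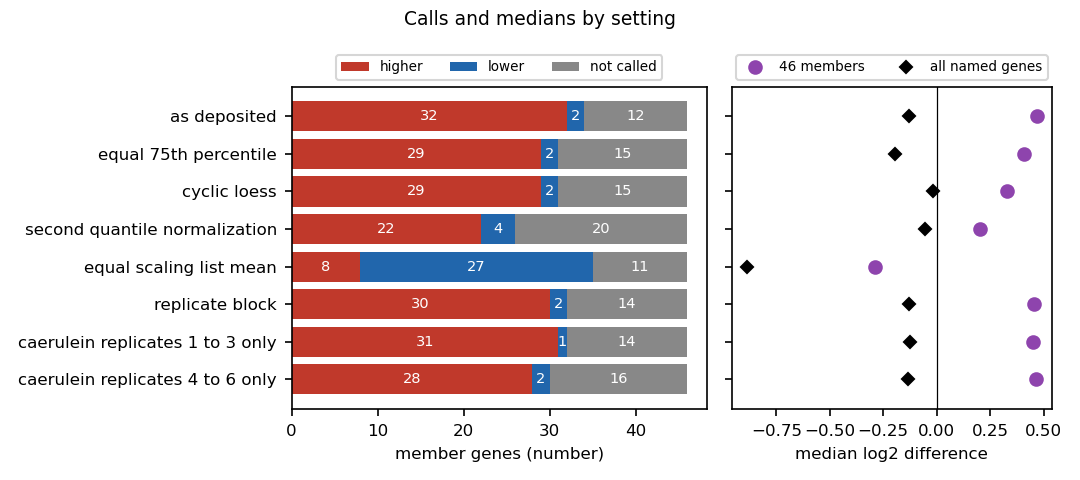
Number of the 46 members called higher, lower or not called (left) and median log2 difference of the members and of all named genes (right) under 8 settings. As deposited 32 were higher and 2 lower, and with the reference-gene shift (equal scaling list mean) 8 higher and 27 lower, while the members' median lay above that of all named genes in each of the 8. A shift of whole arrays cannot change that gap, and it was smallest, at 0.26, after a second quantile normalisation.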

How the data were processed

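Total RNA of whole mouse pancreas was hybridised to Affymetrix arrays, 6 from caerulein and 5 from NaCl mice, grouped by the sample titles. The values analysed are log2 expression per probe set as deposited, with RMA, oligo and limma named per the submitters' processing notes, without versions or a genome build. RMA shares information across arrays and compresses differences of very dim and very bright probe sets; no detection calls were used, and precision is limited by the number of arrays. Nothing in the labels says that each array is a separate mouse, so p-values describe the spread among these arrays, which may be technical.

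Of 35556 probe sets 21789 had 1 gene symbol, 1621 several, and 12146 were unnamed here. All 46 members matched RefSeq by Entrez identifier. The 2 groups were compared with limma 3.58.1 (R 4.3.3; lmFit, eBayes, no covariates, two-sided), with Benjamini-Hochberg adjustment over all probe sets and a threshold of 0.05. A difference is caerulein minus NaCl with the fit's standard error (SE). The fit was tested on simulated data. The members and lists were chosen with earlier results of these data known, so no p-value was adjusted over the members alone. All members are named. Values by array are given, per family, for up to 4 rises and 4 falls past the threshold and for the smallest difference; from each list the 2 largest changes past the threshold and the largest against the list's majority were named. The deviations of same-numbered replicates correlated only weakly (-0.05 to 0.06), which does not settle whether they are paired.

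Alternatives were another variance prior, array weights, 4 rescalings (equal mean of a reference gene list, equal 75th percentile, second quantile normalisation, cyclic loess), leaving out dim probe sets, the mean of all probe sets of a gene, a replicate block, each array left out in turn, 3 caerulein arrays at a time, and a 2-fold minimum.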

Additional observations from a re-analysis of the deposited data

Results flagged for a closer look

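Of 92 sets of arrays tested (46 members in 2 groups), 6 had an array whose distance to its nearest neighbour was large for the range of its group; chance alone gives about 1 in 20. In caerulein, replicate 2 was the highest array for Srsf11 at 7.72 (next 7.58) and for Hnrnpdl at 8.53 (next 8.38), replicate 1 the lowest for Hnrnph2 at 7.57 (next 7.80), and replicate 6 the highest for Snrpb2 at 7.63 (next 7.32). In NaCl, replicate 3 was the lowest array for Hnrnpm at 7.60 (next 7.81) and the highest for Hnrnph2 at 7.47 (next 7.31). Hnrnpm, Hnrnph2 and Snrpb2 kept their calls, and Srsf11 and Hnrnpdl stayed uncalled, with each of these arrays left out.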

How the results depend on the processing

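Directions depended on scaling more than on any other choice. With the equal mean of the reference genes 8 members were higher and 27 lower: 1 and 7 SR, 5 and 8 hnRNP, 1 and 6 snRNP, and 1 and 6 SF3a and SF3b genes. It turned the sign of 31 members: Srsf10 -0.092, Srsf5 -0.17, Srsf2 -0.28, Srsf9 -0.36, Srsf1 -0.42, Srsf11 -0.57, Srsf4 -0.69, Hnrnph1 -0.080, Hnrnpul2 -0.094, Hnrnpa2b1 -0.20, Hnrnpc -0.21, Hnrnpd -0.24, Hnrnph2 -0.30, Hnrnpl -0.30, Hnrnpdl -0.60, Hnrnpll -0.71, Snrpe -0.023, Snrpb2 -0.17, Snrpd1 -0.23, Snrpd3 -0.27, Snrpa -0.58, Snrpg -0.58, Snrpb -0.62, Snrpd2 -0.66, Snrpc -0.72, Sf3a1 -0.10, Sf3b1 -0.31, Sf3b6 -0.41, Sf3a2 -0.55, Sf3b4 -0.55 and Sf3b2 -0.60. By construction all genes move alike under it, and it assumes that those 12 genes did not change on average. An equal 75th percentile turned Hnrnpll (-0.010) and Snrpc (-0.026). A second quantile normalisation gave 4 lower members in all (1 SR, 1 hnRNP, 2 snRNP) and 3 higher SR and 4 higher SF3a and SF3b genes, and turned Srsf11 (-0.077), Srsf4 (-0.21), Hnrnpdl (-0.16), Snrpa (-0.13), Snrpb (-0.17), Snrpd2 (-0.029), Snrpc (-0.21) and Sf3b2 (-0.024). Cyclic loess gave 1 lower SR and 1 lower hnRNP gene, and turned Srsf4 (-0.072), Hnrnpdl (-0.018), Hnrnpr (0.029), Snrpb (-0.026), Snrpc (-0.075) and Sf3b5 (0.046); the cause was not tested. The share of all named genes called higher and lower was 5.96% and 86.5% with the reference genes, 18.7% and 45.9% with the 75th percentile, 19.3% and 23.4% with the second quantile normalisation, and 21.9% and 18.2% with cyclic loess.

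A 2-fold minimum left 6 higher and 0 lower members (0 SR, 4 hnRNP, 1 snRNP and 1 SF3a and SF3b gene), and members with 1 probe set, an alternative chosen after seeing the data, held 3 higher SR genes. The mean of all probe sets turned Sf3b4 (-0.059). With caerulein replicates 1 to 3 only, 1 member was lower, an SR gene; with replicates 4 to 6 only Srsf4 turned (-0.00347). With 1 array left out in turn, 30 to 33 members were higher and 1 to 2 lower: 6 to 6 and 1 to 2 SR, 13 to 13 and 0 to 0 hnRNP, 5 to 7 and 0 to 0 snRNP, and 6 to 7 and 0 to 0 SF3a and SF3b genes; the 1 came without NaCl replicate 3, where Snrpc also turned (its range was -0.00232 to 0.071) and Srsf12 lost its call. Nothing in the labels pairs the samples by replicate number, and a replicate block gave 30 higher and 2 lower members. Of caerulein replicates 1 to 5, 4 correlated best with the NaCl array of their own number. This is a hint from the data only, and the correlations were weak, so whether the samples are paired was not settled. The variance prior, array weights and leaving out dim probe sets turned no member.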
